A study of Mus musculus with 6 samples.

Results

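The Gbp locus on mouse chromosome 3 was examined in macrophages before and after exposure to lipopolysaccharide (LPS). The locus was taken as chr3:142140000-142310000 of build mm9, 170 kb that hold Gbp5, Gbp7, Gbp3 and Gbp2 in this order, and it was chosen by its gain of p300 between conditions. The p300 values below are therefore a description of the reads that selected the locus. All deposited peaks in the interval were taken, 42 of 257266 in all lists. They comprise 2 of 12421 p300 peaks of untreated cells, 7 of 12237 p300 peaks after LPS, 10 of 73500 and 15 of 74365 PU.1 peaks, and 8 of 84743 peaks of histone H3 mono-methylated at lysine 4 (H3K4me1). Peaks that overlapped between conditions were merged, which gave 8 of 19879 p300 sites and 16 of 87958 PU.1 sites. A site is named for a gene where it is the site nearest the approximate position taken for that gene. Where each gene starts on this build was not determined.

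Chromatin immunoprecipitation with sequencing (ChIP-seq) had been run on primary macrophages grown from the bone marrow of female Fvb mice. The untreated group received no LPS and the LPS group received 10 ng/ml for 2 h; no genetic alteration is given for either group. p300 was measured in 2 biological replicates per condition, and PU.1 in 1 library per condition. H3K4me1 and input DNA had 1 library each, from untreated cells. No RNA was measured, so nothing here shows how much of each Gbp transcript the cells made.

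Guanylate-binding proteins (GBPs) are large GTPases that interferons induce in macrophages, where they coat the vacuoles and membranes of intracellular bacteria and parasites. LPS acts through Toll-like receptor signalling, which activates NF-kB and AP-1 and leads to secretion of type I interferon. Interferon in turn activates STAT and IRF factors, which bind the interferon-stimulated response elements of GBP genes. p300 is a histone acetyltransferase brought to active enhancers and promoters by other factors, PU.1 is the ETS-family factor that macrophages need for their identity, and H3K4me1 marks enhancers and the flanks of promoters.

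The promoters of the 4 genes are shown because the p300 gains lay near these genes and because interferon is known to act through promoter elements whose letters can be searched for. They are 300 bases each, from 250 before to 50 after the annotated start, from RefSeq on build GRCm38.p6, plus strand. They lie at chr3:142496684-142496983 for Gbp5, chr3:142530086-142530385 for Gbp7, chr3:142559794-142560093 for Gbp3 and chr3:142620413-142620712 for Gbp2. These positions belong to another build than the peaks and were not converted. Capitals mark every match, on either strand, to GAAANNGAA (the core of the interferon response element), TTCNNNGAA (a STAT site), GAGGAAGT (a PU.1 site), GGANTTTCC (an NF-kB site) or TGANTCA (an AP-1 site).
Gbp5: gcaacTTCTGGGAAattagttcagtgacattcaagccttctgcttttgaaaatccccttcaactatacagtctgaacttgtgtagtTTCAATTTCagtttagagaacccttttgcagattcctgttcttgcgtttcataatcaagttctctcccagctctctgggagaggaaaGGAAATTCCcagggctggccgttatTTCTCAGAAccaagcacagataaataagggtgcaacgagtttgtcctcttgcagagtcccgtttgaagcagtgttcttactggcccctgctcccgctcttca
Gbp7: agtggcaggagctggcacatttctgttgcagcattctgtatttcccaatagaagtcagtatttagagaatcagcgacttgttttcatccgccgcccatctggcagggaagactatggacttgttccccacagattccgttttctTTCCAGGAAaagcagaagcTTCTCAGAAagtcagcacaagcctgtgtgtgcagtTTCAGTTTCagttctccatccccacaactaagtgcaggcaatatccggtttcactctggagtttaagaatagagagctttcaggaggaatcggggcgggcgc
Gbp3: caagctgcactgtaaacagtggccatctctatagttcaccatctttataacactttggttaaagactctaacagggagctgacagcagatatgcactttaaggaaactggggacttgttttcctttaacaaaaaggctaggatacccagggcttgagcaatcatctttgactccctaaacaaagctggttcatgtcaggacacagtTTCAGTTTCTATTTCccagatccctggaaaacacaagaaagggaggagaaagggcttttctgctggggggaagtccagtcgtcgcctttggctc
Gbp2: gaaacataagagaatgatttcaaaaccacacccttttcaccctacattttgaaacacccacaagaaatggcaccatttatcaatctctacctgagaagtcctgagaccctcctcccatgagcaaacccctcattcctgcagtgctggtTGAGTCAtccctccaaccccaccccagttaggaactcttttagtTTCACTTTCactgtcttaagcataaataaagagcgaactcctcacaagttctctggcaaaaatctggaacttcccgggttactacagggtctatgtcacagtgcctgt

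Each of the 4 promoters held the interferon response core, which was found in 8.55% of the 32817 RefSeq promoters of this length. The match began 164 bp before the start in Gbp5 (TTCAATTTC), 52 bp before it in Gbp7 (TTCAGTTTC) and 58 bp before it in Gbp2 (TTCACTTTC), all on the minus strand. Gbp3 held 2 overlapping matches, 44 and 38 bp before the start, which read together as TTCAGTTTCTATTTC. STAT letters, present in 8.29% of promoters, occurred at 2 places in Gbp5 and at 2 in Gbp7, and TTCTCAGAA was in both. The NF-kB letters (1.26% of promoters) occurred in Gbp5 as GGAAATTCC, and the AP-1 letters (7.81%) in Gbp2 as TGAGTCA. None of the 4 windows held the PU.1 letters, found in 3.20% of promoters. Gbp3 has a further promoter entry with no match to any of these motifs, and Gbp2b, which lies between Gbp3 and Gbp2 in the RefSeq order, has 1 match to the interferon response core and 1 to the AP-1 letters. A match is a string of letters in this window and not a measured binding site.

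The reads behind the values are few. The files held 5744811 to 7828655 reads per library, and 5503587 to 6428281 remained when 1 read was kept per position and strand. The p300 libraries differed in enrichment, since 1.44% and 6.20% of the distinct reads of untreated replicates 1 and 2 lay in the p300 peaks of that condition, against 2.31% and 5.49% for LPS replicates 1 and 2. p300 reads were therefore scaled by the median ratio over all p300 sites and are called normalised reads. After scaling, the size of the first untreated library came to 30.6% of the second, so each of its reads weighs more. For PU.1, 51.7% and 49.2% of the reads lay in its own peaks, and the scale factors of both libraries were 1.00. Macrophage marker genes were not analysed here, since no gene models of build mm9 were used.

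**Figure D1:**
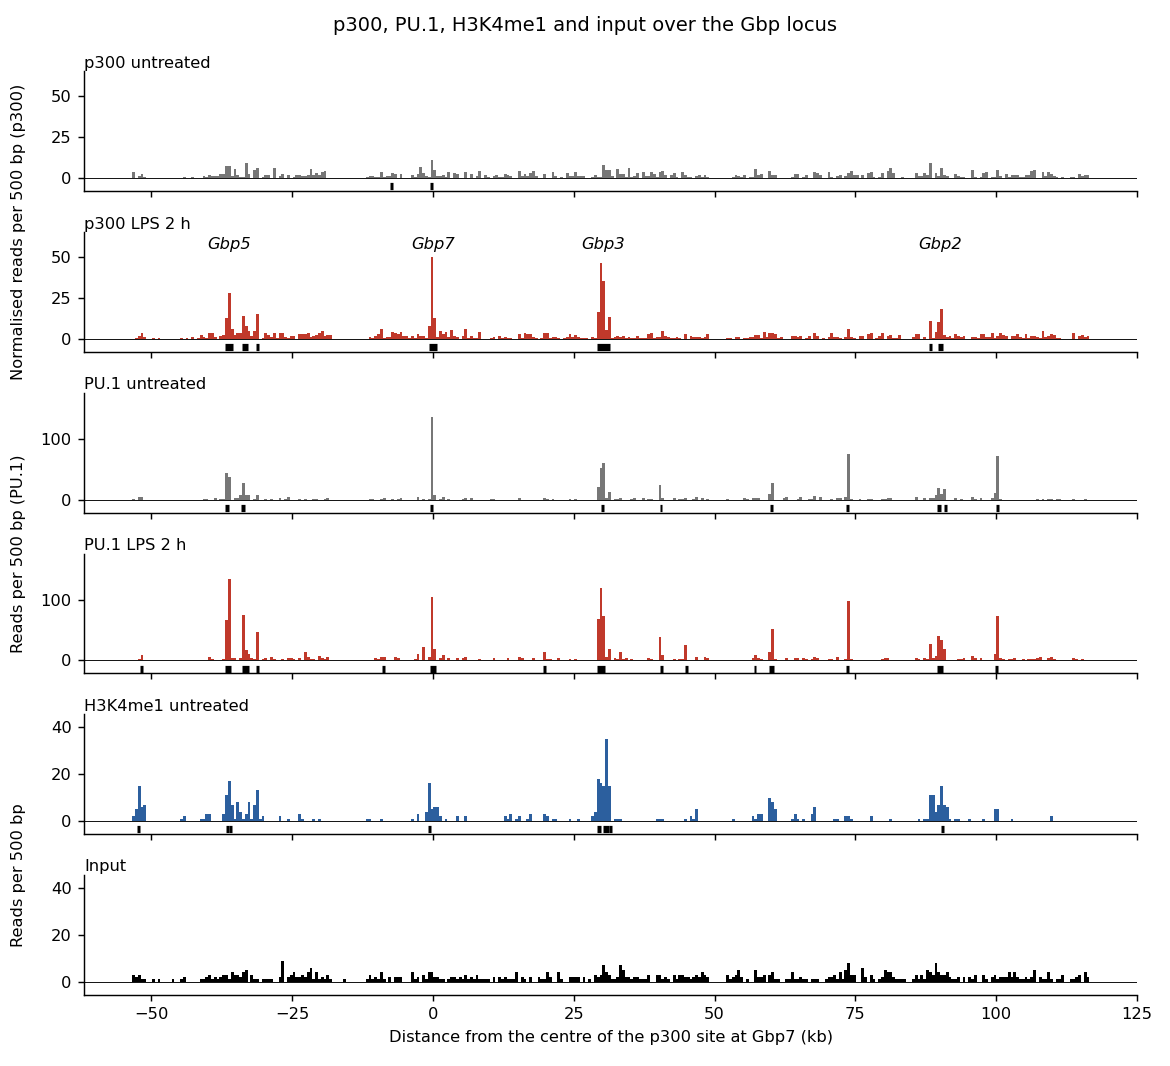
Reads per 500 bp over the locus against the distance from the centre of the p300 site at Gbp7, in kb, for p300 (mean of 2 normalised replicates), PU.1, H3K4me1 and input, with the deposited peaks as black bars under each track. After LPS 7 p300 peaks stand at and between the 4 labelled genes where untreated cells had 2, while the PU.1 peak at the right end of the map (80 and 82 reads) is similar in both conditions.

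After LPS, p300 was called higher at the sites named for Gbp5, Gbp3 and Gbp2 and at both small sites beside Gbp5, and not called at Gbp7. The sum over the 8 p300 sites went from 68 to 162 reads between the replicate 1 libraries, a scaled ratio of 1.86 (exact 95% interval 1.39 to 2.50), and from 99 to 620 reads between the replicate 2 libraries, a ratio of 7.17 (5.79 to 8.96). The mean of the normalised sums went from 91.4 to 319.5 reads, a log2 ratio of 1.81. Both replicate numbers gave a gain, and its size differed between them. Intervals on ratios of 2 libraries cover counting error only, and reads without molecular identifiers are not independent molecules. Replicates sharing a number are not known to come from the same culture.

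Across the genome, limma voom was fitted to 19727 p300 sites with at least 10 reads, and 388 (1.97%) were higher after LPS at an adjusted p threshold of 0.05. In the Gbp locus 5 of the 8 sites were called higher and 0 lower. At 6 of the 8 sites both LPS libraries lay above both untreated libraries, which held at 5318 (27.0%) of the tested sites. These counts come from the contrast that chose the locus. Of the 8 sites, 6 had a peak in the LPS list alone, 1 in both lists and 1 in the untreated list alone; of all p300 sites 38.1% had a peak in the LPS list alone. Among 14955 windows of 170 kb that tile the genome, 38 (0.254%) held at least 6 sites of the LPS list alone, and the median window held 1 p300 site of any kind. The median log2 fold change was 2.02 over the 8 sites and 0.00 over all tested sites.

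The count of 5 rested on single libraries and on the scaling. It was 5 without untreated replicate 1, 1 (the Gbp3 site) without untreated replicate 2, and 0 without LPS replicate 1 or without LPS replicate 2, although 7 and 4 sites of the locus kept an unadjusted limma p under 0.05 in those last fits. Scaling by total reads left 0 sites called in the genome and in the locus, with 1032 higher and 466 lower sites at an unadjusted p under 0.05, none of the higher ones in the locus. Of 11 alternatives, the call was lost in 4 at the Gbp3 site, 5 at Gbp2, 6 at Gbp5, 6 at site 2 and 11 at site 3.

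**Figure D2:**
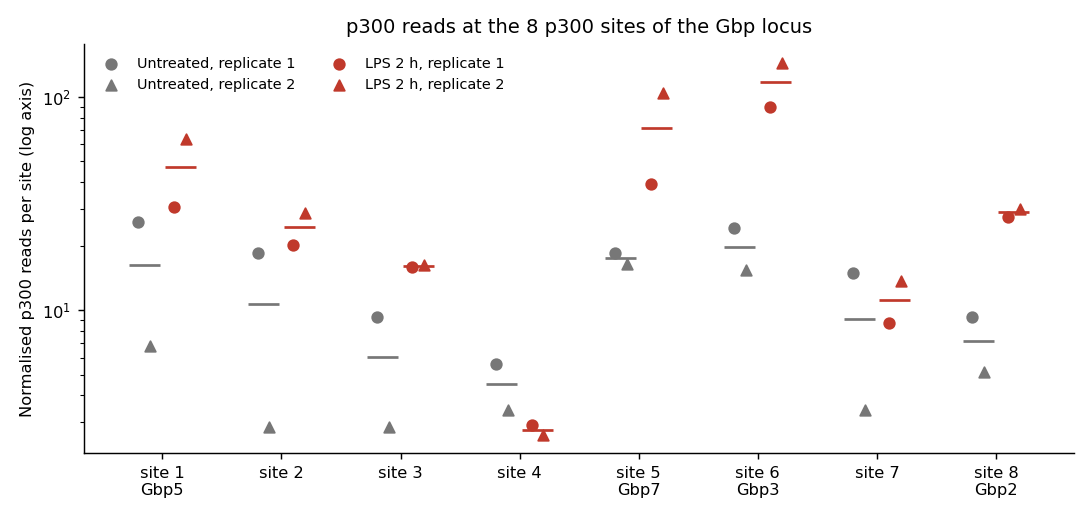
Normalised p300 reads on a log axis at the 8 p300 sites in order along the chromosome, with circles for replicate 1, triangles for replicate 2 and lines for the mean of 2 replicates (grey, untreated; red, LPS). The LPS values lie above the untreated values at sites 1, 2, 3, 5, 6 and 8, and below them at site 4.

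Gbp5 encodes a GBP known for promoting assembly of the NLRP3 inflammasome. The p300 site nearest the position taken for it, site 1 (chr3:142156490-142157950), had 14 and 12 reads in untreated replicates 1 and 2 and 21 and 98 reads in LPS replicates 1 and 2. These correspond to 26.0 and 6.83 normalised reads untreated and 30.4 and 63.9 after LPS. The LPS values were higher, but the lower of them exceeded the higher untreated value by little. The means were 16.4 ± 13.6 and 47.2 ± 23.7 normalised reads (SD, n = 2 each), and the fitted log2 fold change was 1.94 ± 0.55 (SE). The ratio within replicate 1 was 1.17 (0.567 to 2.48) and within replicate 2 it was 9.36 (5.12 to 18.7), so the difference came mainly from the replicate 2 libraries. Each library weighed on this value: the log2 fold change was 2.63 without untreated replicate 1, 0.68 without untreated replicate 2, 2.57 without LPS replicate 1 and 1.34 without LPS replicate 2. No p300 peak was listed here in untreated cells; in the authors' deposited LPS list the peak had a score of 705, rank 235 of 12237. Scores are those of the authors' peak caller, 10 times the -log10 p-value, and the median of that list was 70.5.

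A pair of smaller p300 sites lay to the right of the Gbp5 site. Site 2 (chr3:142159580-142160642) had 18.6 and 2.85 normalised reads in untreated replicates and 20.3 and 28.7 after LPS, with means of 10.7 ± 11.1 and 24.5 ± 5.94 (SD, n = 2 each). Its ratio was 1.09 (0.451 to 2.74) within replicate 1 and 10.1 (4.01 to 32.6) within replicate 2. Site 3 (chr3:142161939-142162457) had 9.30 and 2.85 normalised reads untreated and 15.9 and 16.3 after LPS, with means of 6.07 ± 4.56 and 16.1 ± 0.256 (SD, n = 2 each). Its ratios were 1.71 (0.549 to 6.29) and 5.73 (2.15 to 19.2). At both sites the untreated libraries differed from each other more than the LPS libraries did. The fitted log2 fold changes were 2.45 ± 0.59 at site 2 and 2.11 ± 0.64 at site 3 (SE). Without untreated replicate 2 they were 0.33 and 0.70. Both were called with all 4 libraries, site 2 at a limma adjusted p of 0.00507 and site 3 at 0.0472.

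Gbp7 encodes a further interferon-induced GTPase of the family. Its p300 site, site 5 (chr3:142192704-142194142), was the only one of the locus with a peak in both deposited p300 lists. It held 10 and 29 reads in untreated replicates and 27 and 159 reads after LPS, or 18.6 and 16.5 against 39.1 and 104 normalised reads. The untreated libraries were alike and the LPS libraries were not, with means of 17.6 ± 1.48 and 71.4 ± 45.6 (SD, n = 2 each). The log2 fold change was 1.76 ± 0.55 (SE), which was not called (limma adjusted p = 0.0574). It was called by limma trend (adjusted p = 0.0397) and in limma voom without untreated replicate 1 (adjusted p = 0.0132); without LPS replicates 1 and 2 in turn its log2 fold change was 2.53 and 1.13. The ratio was 2.10 (0.987 to 4.87) within replicate 1 and 6.28 (4.21 to 9.68) within replicate 2. In the authors' deposited lists the peak stood at rank 5046 of 12421 (score 82.7) and at rank 78 of 12237 after LPS (score 1122); ranks from lists of different length show no change by themselves.

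Gbp3 encodes another interferon-induced GTPase of the family, and its site had the most p300 reads of the locus in LPS-treated cells. Site 6 (chr3:142222507-142224912, 2406 bp) held 13 and 27 reads in untreated replicates and 62 and 223 after LPS. These are 24.2 and 15.4 normalised reads untreated against 89.8 and 145 after LPS. The groups lay far apart, with means of 19.8 ± 6.23 and 118 ± 39.3 (SD, n = 2 each) and a log2 fold change of 2.52 ± 0.58 (SE). Within replicate 1 the ratio was 3.72 (2.02 to 7.36) and within replicate 2 it was 9.46 (6.33 to 14.7). This was the site that kept its call without untreated replicate 2 (log2 fold change 2.14). In the authors' deposited LPS list it had a score of 1214 and rank 65 of 12237. The site spans several maxima in the read profile, and a site of this width gathers more reads than the median p300 site of 486 bp.

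Gbp2 encodes a GBP known for its recruitment to the vacuole of Toxoplasma. Its p300 site, site 8 (chr3:142283072-142283998), had 5 and 9 reads in untreated replicates and 19 and 46 after LPS, or 9.30 and 5.12 against 27.5 and 30.0 normalised reads. The LPS libraries were close to each other and above both untreated libraries, with means of 7.21 ± 2.95 and 28.8 ± 1.74 (SD, n = 2 each). The log2 fold change was 2.26 ± 0.59 (SE), and the ratios were 2.96 (1.07 to 10.1) and 5.85 (2.83 to 13.6). It was 1.51 on the log2 scale when untreated replicate 2 was left out. Gbp3 and Gbp2 were the genes at whose sites the interval of both replicate ratios lay above 1. Among the sites named for the 4 genes, Gbp2 had the lowest score in the authors' deposited LPS list, 259, at rank 1185; those of sites 2, 3 and 7 were lower still.

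The remaining p300 sites did not share the gain in all libraries. Site 7 (chr3:142281573-142282098), next to the Gbp2 site, had 14.9 and 3.41 normalised reads untreated and 8.69 and 13.7 after LPS, so the groups overlapped. Its log2 fold change of 1.31 ± 0.61 (SE) was not called (limma adjusted p = 0.253) and was -0.39 without untreated replicate 2. Site 4 (chr3:142185865-142186152), between Gbp5 and Gbp7, had 5.58 and 3.41 normalised reads untreated and 2.90 and 2.61 after LPS, with a log2 fold change of -0.39 ± 0.96 (SE). It had 15 reads in all, fewer than the 40 set for the other named sites, no PU.1 or H3K4me1 peak, and a score of 50.5 in the authors' deposited untreated list, rank 11963 of 12421.

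**Figure D3:**
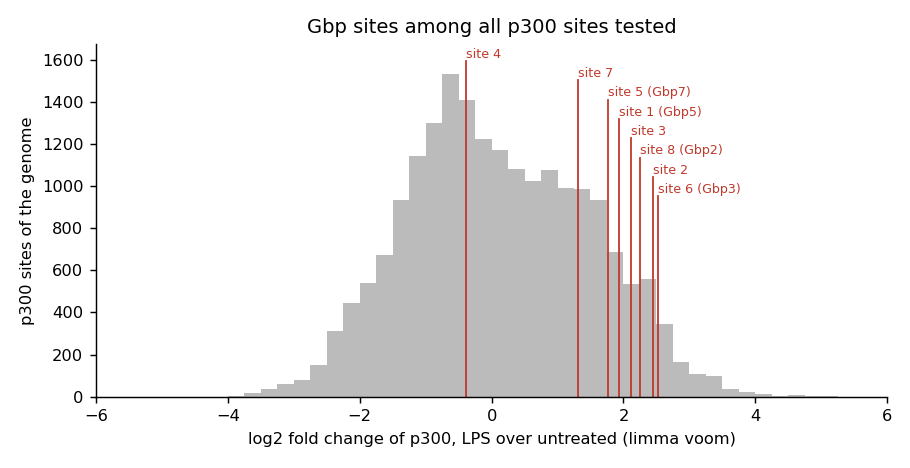
Distribution of the log2 fold change of p300, LPS over untreated, over the 19727 sites tested by limma voom (grey bars, sites per 0.25), with the 8 sites of the Gbp locus as red lines. Of the 8, 7 lie between 1.31 and 2.52, and site 4 lies at -0.39.

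PU.1 was higher after LPS at Gbp5, Gbp3 and Gbp2 and not at Gbp7. At the Gbp5 site PU.1 went from 81 to 202 reads, a ratio of 2.49 (1.92 to 3.27). At the Gbp3 site it went from 135 to 262 reads, a ratio of 1.94 (1.57 to 2.41), and at the Gbp2 site from 28 to 75, a ratio of 2.68 (1.71 to 4.30). At the Gbp7 site, which with Gbp3 held the most PU.1 reads of the locus in untreated cells, it went from 144 to 126, a ratio of 0.875 (0.683 to 1.12). p300 at Gbp7 was thus higher in both LPS libraries while the PU.1 interval included 1. With 1 PU.1 library per condition these ratios compare libraries and have no replicate check.

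Both small p300 sites beside Gbp5 also had more PU.1 after LPS. PU.1 site 3 (chr3:142159398-142160704), at p300 site 2, went from 44 to 104 reads (ratio 2.36, 1.65 to 3.44). PU.1 site 4 (chr3:142162028-142162336), at p300 site 3, went from 7 to 47 reads, a ratio of 6.71 (3.02 to 17.6), and had a PU.1 peak in the LPS list alone. It had the largest ratio among the PU.1 sites of the locus with at least 40 reads. It reached 40 reads only through the LPS library, so its direction and rank restate in part which list held it. p300 site 7 had no PU.1 peak, and its PU.1 reads went from 4 to 30.

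The PU.1 sites away from p300 behaved differently from one another. PU.1 site 13 (chr3:142266806-142267382) had 79 and 97 reads, a ratio of 1.23 (0.903 to 1.67). PU.1 site 16 (chr3:142293266-142293863), at the right end of the locus, had 80 and 82 reads, a ratio of 1.02 (0.744 to 1.41). These were among the 5 strongest PU.1 sites of the locus, and neither had a p300 peak. PU.1 sites 9 and 12 went from 26 to 46 and from 36 to 64 reads, with ratios of 1.77 (1.07 to 2.98) and 1.78 (1.16 to 2.75). The other 6 PU.1 sites had under 40 reads over both libraries. PU.1 site 10 (chr3:142238189-142238457) went from 3 to 25 reads (ratio 8.33, 2.54 to 43.1), PU.1 site 7 from 2 to 15 (7.50, 1.74 to 67.6), PU.1 site 5 from 1 to 8 (8.00, 1.07 to 355) and PU.1 site 11 from 4 to 11 (2.75, 0.815 to 11.8). High PU.1 ratios thus also occurred at no p300 site, at few reads. These 4 and PU.1 site 1 (7 and 10 reads) had a peak in the LPS list alone and PU.1 site 15 (17 and 14 reads) in the untreated list alone, so their direction restates which list held them.

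The ratio exceeded 2 at 4 of the 10 PU.1 sites that held 40 reads or more, and all 4 lay at p300 sites. In the genome it exceeded 2 at 1350 of 42939 such sites (3.14%). PU.1 site 4 is among the 4, and it reached 40 reads only through the LPS library (7 and 47 reads). Its ratio restates in part which list held it, also in the medians that follow. The median ratio was 1.86 over these 10 sites, 2.42 over the 6 at p300 sites and 1.5 over the 4 at none, against 0.972 over the genome. The cut at 40 reads left out PU.1 sites 5, 7, 10 and 11, which lay at no p300 site and had ratios of 2.75 to 8.33. Of the 16 PU.1 sites 6 lay at a p300 site, against 12.2% of all PU.1 sites. Since the locus was chosen by its gain of p300, the split by p300 site is a description and shows no link of PU.1 to p300. Summed over all 16 sites, PU.1 went from 694 to 1188 reads (ratio 1.71, 1.56 to 1.88), and over the 10 without p300 from 255 to 372 (1.46, 1.24 to 1.72). A peak in both lists was found at 9 of the 16 sites and at 66.7% of all PU.1 sites. The other sites of the locus are 6 with a peak in the LPS list alone and 1 in the untreated list alone. Part of both ratios therefore restates which list held a site. At those 10 PU.1 sites p300 had a ratio of 1.22 (0.687 to 2.23) within replicate 1 and 1.54 (0.972 to 2.45) within replicate 2. Since these sites are those without a p300 peak in either list, their p300 values are not set against those of the p300 sites.

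PU.1 reads outside the peaks were also higher over the locus. More than 1 kb from any site the window held 136 PU.1 reads in untreated cells and 361 after LPS, a ratio of 2.34 (1.92 to 2.88) when scaled by the same reads over the genome. After that scaling 16 of the 17 segments of 10 kb were higher after LPS and 1 was lower. Among 14601 windows of 170 kb in which 40 or more such reads were found, the ratio exceeded 2 in 6 (0.0411%), and its median was 1.00. p300 reads this far from sites had ratios of 1.25 (1.06 to 1.47) and 1.19 (1.01 to 1.41) within replicates 1 and 2. The part of this broad difference in the ratios at PU.1 peaks was not tested.

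**Figure D4:**
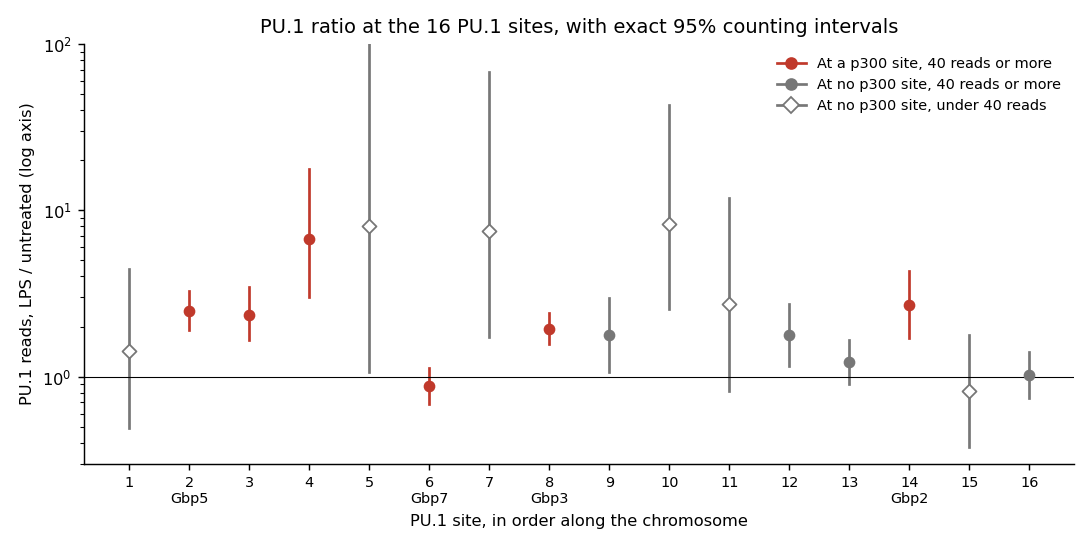
Ratio of PU.1 reads, LPS over untreated, on a log axis at the 16 PU.1 sites in order along the chromosome, with exact 95% counting intervals (red, at a p300 site; grey, at none; open diamonds, under 40 reads). The red sites lie at 1.94 or above except the Gbp7 site at 0.875, and the interval of site 5 runs past the top of the axis.

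The LPS lists also held wider PU.1 peaks at the Gbp genes. In the authors' deposited lists the PU.1 peak went from 649 to 1004 bp at Gbp5, from 579 to 1063 bp at Gbp7, from 481 to 1378 bp at Gbp3 and from 573 to 972 bp at Gbp2. Wider peaks were not confined to these genes. PU.1 site 3 went from 594 to 1286 bp, PU.1 site 12 from 542 to 858 and PU.1 site 16 from 444 to 596. PU.1 site 9 stayed at 503 bp, and PU.1 site 13 went from 530 to 526. Over the genome the median PU.1 peak was 379 bp in the untreated list and 393 bp after LPS. These medians include peaks found in a single list, and the share of all PU.1 sites with a wider peak after LPS was not taken. At Gbp3 the reads inside the untreated interval were 101 and 120, a ratio of 1.19 (0.904 to 1.56). The 825 bp to its left that the LPS peak added held 33 and 138 PU.1 reads, a ratio of 4.18 (2.84 to 6.31). That stretch held 0 and 5 p300 reads in untreated replicates and 23 and 68 after LPS, and 34 H3K4me1 reads against 3 input reads. The stretch was left out of the untreated peak, so it has few untreated PU.1 reads by construction. As a description of shape, the Gbp3 element had a PU.1 maximum of like height in both conditions and a neighbouring one that was higher after LPS.

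The other genes had a different shape. At Gbp5 the reads inside the untreated interval were 81 and 187 (ratio 2.31, 1.77 to 3.03), so most of the added reads lay within the interval listed before LPS. At Gbp2 they were 23 and 53, and the 413 bp added on the right held 5 and 22 reads. At Gbp7 the interval held 137 and 108 reads (0.788, 0.607 to 1.02) and the 407 bp added on its right 7 and 17 reads (2.43, 0.957 to 6.93). A flank left out of the untreated peak has few untreated reads by construction, so its ratio is a description of shape.

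p300 and PU.1 had their maxima close together. The highest 200 bp of p300 after LPS was centred 75 bp to the right of that of PU.1 in untreated cells at Gbp5, at -60 bp (to the left) at Gbp7 and at -10 bp at Gbp3. At Gbp2 the distance was 320 bp from the untreated PU.1 maximum and -5 bp from that of the LPS library, since the PU.1 maximum moved by 325 bp between conditions. That move rests on 10 PU.1 reads in the highest 200 bp of untreated cells and 30 after LPS. At Gbp3 the PU.1 maximum held 93 and 99 reads and stayed in place, and at Gbp5 it held 46 and 139 reads and lay 5 bp apart. The p300 maxima pool both LPS replicates. In its highest 200 bp, replicate 1 held 8, 14, 17 and 8 reads at Gbp5, Gbp7, Gbp3 and Gbp2. Replicate 2 held 50, 68, 71 and 22. The replicates' own maxima differed, at positions 142193148 and 142193203 at Gbp7 and 142283603 and 142283546 at Gbp2.

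**Figure D5:**
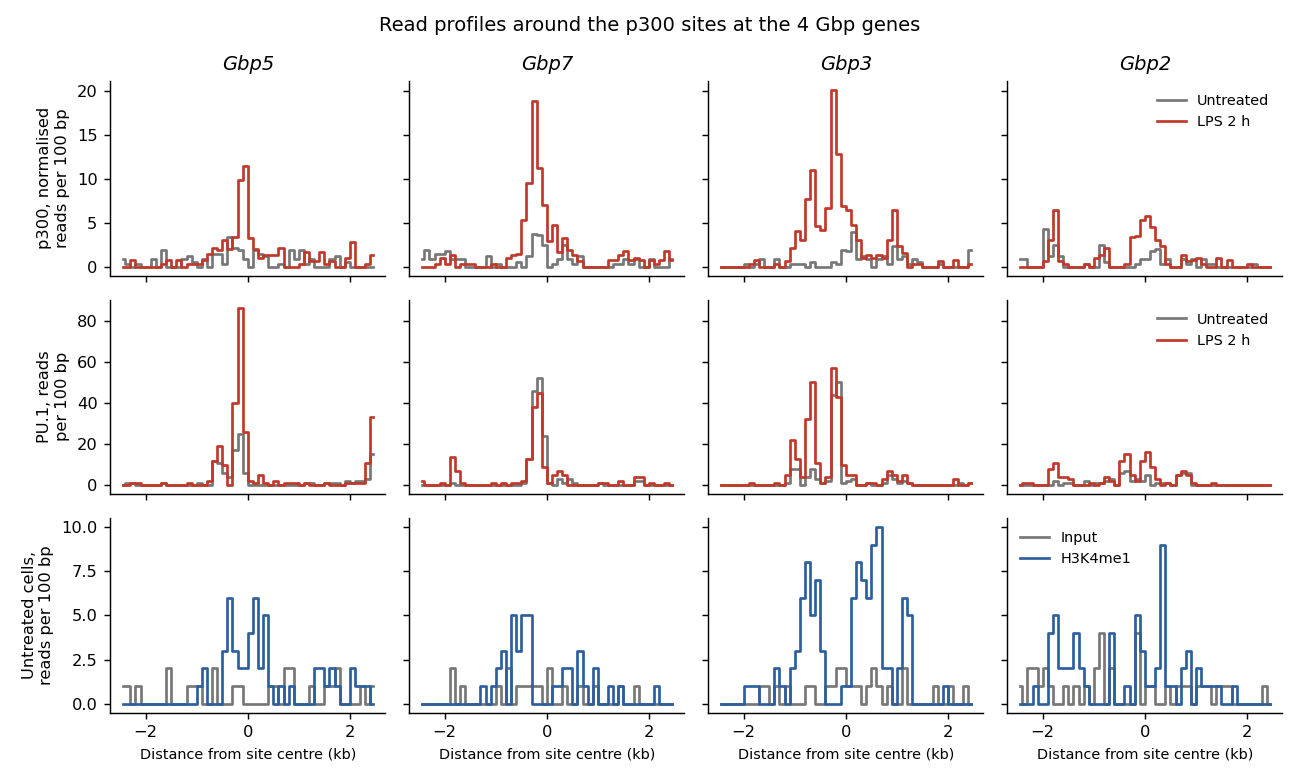
Reads per 100 bp within 2.5 kb of the centre of the p300 sites at Gbp5, Gbp7, Gbp3 and Gbp2, for p300 (mean of 2 normalised replicates; top), PU.1 (middle), and H3K4me1 with input in untreated cells (bottom). At Gbp3 a left PU.1 and p300 maximum appears after LPS beside one whose PU.1 height is similar in both conditions, and H3K4me1 is near 0 at the Gbp3 and Gbp7 maxima.

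In untreated cells H3K4me1 already lay beside the 4 genes. Of the 8 deposited H3K4me1 peaks of the locus, 7 overlapped the p300 sites at Gbp5, Gbp7, Gbp3 and Gbp2. The share of all H3K4me1 peaks that overlap a p300 site was not taken. Counted by site, 4 of the 8 p300 sites held an H3K4me1 peak, against 48.0% of all p300 sites. The longest, H3K4me1 peak 6 (chr3:142223672-142224636), and H3K4me1 peak 5 (chr3:142222607-142223343) both lay in the Gbp3 site and held 52 and 34 H3K4me1 reads against 9 and 2 input reads. Their depth-scaled ratios were 5.74 (2.80 to 13.2) and 16.9 (4.33 to 145). H3K4me1 peak 3 at Gbp5 (chr3:142157108-142157680) held 21 reads against 0 input reads, and H3K4me1 peak 4 at Gbp7 (chr3:142192561-142193122) held 21 against 5. The fifth in length, H3K4me1 peak 1 (chr3:142140924-142141406), lay at the left end of the locus at no p300 site, with 16 reads against 3. The sites at the 4 genes thus carried the mark before LPS, although those at Gbp5, Gbp3 and Gbp2 had no p300 peak then. The H3K4me1 peak at Gbp2 was near the end of its list, at rank 82981 of 84743 (14 reads against 2 of input).

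Within the sites the mark was low at the PU.1 maximum of Gbp7 and Gbp3. The 300 bp centred on the untreated PU.1 maximum held 0 H3K4me1 reads at Gbp7 and 0 at Gbp3, against 13 and 14 in the 300 bp to the left and 1 and 11 in the 300 bp to the right. At Gbp5 the centre held 10 reads, with 5 to the left and 13 to the right, and at Gbp2 it held 1, with 4 and 9. Input had 2, 2, 5 and 0 reads in the centres at Gbp5, Gbp7, Gbp3 and Gbp2. The centre at Gbp5 lay between its sides in reads, so no dip was seen there. At Gbp7 the right side was low as well, so the 0 at its centre is not a dip between marked sides. At counts this small a dip at Gbp2, or a shallow one at Gbp5, was not detectable.

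Within 1 kb of the site centre the log2 ratio of H3K4me1 to input was 2.31 at Gbp3, 1.73 at Gbp5, 1.35 at Gbp7 and 0.83 at Gbp2. Of the p300 sites without a deposited H3K4me1 peak, site 3 had a value of 2.19, site 2 had 0.62 and site 7 had 0.25. Site 4, which had no gain of p300, had -2.33, from 0 H3K4me1 reads and 4 input reads. Over the whole window H3K4me1 held 475 reads and input 571, a log2 ratio of -0.28 after scaling by distinct reads, while the median window of the genome had -1.49. That value was 0.76 when the libraries were scaled by reads outside H3K4me1 peaks, so its sign depends on the scaling. H3K4me1 peaks covered 2.66% of the window and 2.86% of the tiled genome. H3K4me1 after LPS was not analysed here.

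PU.1 was listed in untreated cells at 5 of the 8 p300 sites and after LPS at 6, and H3K4me1 at 4. Of all p300 sites, 48.5% overlapped an untreated PU.1 peak and 48.0% an H3K4me1 peak, so the 5 and 4 of 8 here do not stand far from the genome. No such share was taken for PU.1 peaks after LPS, so the 6 is not set against the genome. Among the 4 genes, Gbp7 had strong PU.1 before LPS, no detectable gain of PU.1 and a p300 peak in untreated cells. Gbp5 and Gbp3 had PU.1 and H3K4me1 before LPS and more p300 and PU.1 after it, and so did Gbp2, at lower read counts. The peaks of untreated cells at Gbp2 were near the end of their lists. PU.1 there had rank 71171 of 73500 (score 53.5) and H3K4me1 rank 82981 of 84743 (score 51.2).

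Coverage of the locus by the alignments was uneven. Of its 170 bins of 1 kb, 17 (10.0%) had no input read, against 24.2% of bins over the genome. The longest run of bins without input reads was 3 kb (chr3:142178001-142181000). The stretch without other reads was longer. In all 500 bp bins centred from -17.672 to -12.172 kb of the Gbp7 site centre, p300, PU.1 and H3K4me1 held 0 reads. Input held 1 read there, at -15.672 kb, so a site in this stretch could not be seen. The window held 571 input reads against a median of 365 per window. GBP genes are similar in sequence, and how reads with several alignments were treated is not given in the sources used here, so reads of near-identical stretches of the family could be missing or shared. Whether a site lies in a promoter, exon or intron was not determined, since no mm9 gene models were used. In RefSeq on GRCm38.p6 the starts of Gbp5 and Gbp7 are 33.4 kb apart, while on mm9 the p300 maximum of the Gbp5 site lies 36.1 kb from that of Gbp7 and the centre of site 2 lies 33.1 kb from it. For Gbp7 and Gbp3 the distances were 29.7 and 30.3 kb, and for Gbp3 and Gbp2 60.6 and 60.1 kb. By this spacing site 2 is nearer to the distance of the Gbp5 start than site 1 is, and which of these sites holds it was not determined.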

How the data were processed

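ChIP-seq for p300, PU.1 and H3K4me1 and sequenced input were used as aligned reads and peak lists on build mm9, named in the submitters' processing notes. The aligner and the versions are not given in the sources used here. The score of a peak is 10 times the -log10 p-value of MACS, per the deposited column description. Per the file headers, the authors called p300 peaks against a library named naked, PU.1 against one named random and H3K4me1 against input. p300 peaks come from merged replicates, per the series' design text. LPS is named in the header of the peak list for PU.1 without treatment; the sample label was followed.

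Read positions (another kind of deposited value than a count table) were counted here: 1 read per position and strand, 5' ends moved 100 bp, chromosomes 1 to 19 and X, 8 libraries. Peaks overlapping by at least 1 bp were merged. p300 sites with at least 10 reads were fitted with limma voom (limma 3.58.1, R 4.3.3), treatment as the single term, with Benjamini-Hochberg adjustment over all sites. The fit gave all sites a common variance, and its SE and p leave out how far the replicates of that site lie apart. Voom gives the more enriched replicate 2 more weight, so a fold change can exceed the ratio of the means. Intervals on ratios are exact 95% intervals given the sum of both libraries' reads. Log2 ratios of H3K4me1 within 1 kb had 1 read added to each library. Counting and figures used Python 3.11.15 with numpy, pandas, scipy and matplotlib.

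All 8 p300 sites are given. Named PU.1 sites are the 5 with the most reads and the 3 highest and 3 lowest ratios among those with at least 40 reads, and named H3K4me1 peaks are the 5 longest; PU.1 sites 1, 3, 5, 7, 9, 10, 11, 12 and 15 were added after their values were seen. The locus, genes, motifs and lists were chosen with earlier results of these data known. Lists of interferon pathway genes and of cell type markers were not analysed here, for want of mm9 gene models. Alternatives were other scalings, all reads kept, a 50 bp shift, fixed-width sites, all sites tested, limma trend, a replicate block and leaving out each p300 library.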

Additional observations from a re-analysis of the deposited data

How the results depend on the processing

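The log2 ratio of p300 over the 8 sites was 1.81 and ranged from 1.34 to 2.50 when single libraries were left out, and it was 2.32 with total-read scaling. The count of called p300 sites, 5 in limma voom, depended on more. It was 0 with total-read scaling, which moved the median log2 fold change of all sites to 0.20, and 0 with sites of fixed width, where the smallest adjusted p in the genome was 0.0715 and 6 sites of the locus had an unadjusted p under 0.05. It was 3 with limma trend (sites 5, 6 and 8), 4 with all reads kept, with a 50 bp shift and with all sites tested, and 0 to 5 when single libraries were left out. Fits without 1 library leave 1 arm with a lone sample, which is assumed to vary like the others. With the replicate block it was 5 (sites 1, 2, 5, 6 and 8), so Gbp7 was called and site 3 was not, while the genome had 898 higher and 396 lower sites instead of 388 and 42. Deviations of same-numbered replicates had a correlation of 0.209 over 19727 sites, and the labels give no shared origin for a number.

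Of 88 alternative log2 fold changes of single p300 sites, 52 kept direction and call, 32 lost the call, 3 gained it and 1 turned: site 7 had -0.39 without untreated replicate 2 and 1.73 without untreated replicate 1. All 30 alternative ratios of PU.1 sites with at least 40 reads moved by less than their counting interval; the ratio over all 16 sites was 1.65 to 1.72. The H3K4me1 ratio to input over the window turned from -0.28 to 0.76 (log2) when scaled by reads outside H3K4me1 peaks. Depth limits the sites under 40 reads, where the interval of a ratio is wide.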
